A study of Mus musculus with 23 samples.

Results

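Antibody genes and genes of the major histocompatibility complex (MHC) class II were followed across 23 arrays of mouse nucleus accumbens, the ventral part of the striatum. The genes sought were Igkv5-43, Jchain, H2-Ab1, H2-Aa, H2-Eb1 and Cd74, each through a probe set that carries its symbol alone, and through the one with the highest mean where a gene had several. Under that rule 5 of the 6 genes were measured, of 22180 genes on the array. The sixth, Cd74, shares its probe set with the microRNA gene Mir5107 and is given below as a shared probe set. These genes were chosen with their values on these same arrays known, so their levels, the arrays that carry high values and the likeness between genes are described without a test.

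The arrays came from C57BL/6 mice of about 15 weeks, 1 array per mouse. About 5 weeks before collection, every mouse had received an adeno-associated virus (AAV) in the nucleus accumbens, and the region was later micropunched. The virus carried a short hairpin RNA against Nr1d1, the gene of the clock repressor REV-ERB alpha, in the groups labelled knockdown, and a scrambled hairpin in the control groups. The groups held 5 control females, 6 knockdown females, 6 control males and 6 knockdown males. All mice therefore shared the surgery and the virus, and no uninjected group was analysed here. The labels' treatment text speaks of a postpartum day and of litters for the males as well as the females, so reproductive state was not used. The sources used here do not give the promoter that drove the hairpin or the share of cells that took up the virus.

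Values are the authors' log2 signals per probe set, and a difference of 1 on this scale is a doubling of signal. The female and the male arrays had medians of 6.11 to 6.17 and of 5.84 to 5.88, so the sexes appear to have been normalized separately, and levels were compared within a sex. Nr1d1 did not differ detectably with the label: its log2 signal was 10.04 ± 0.07 (SD, n = 5) in control and 9.99 ± 0.16 (SD, n = 6) in knockdown females, and 9.59 ± 0.20 and 9.58 ± 0.13 in control and knockdown males (SD, n = 6 each). Every direction given below for knockdown against control thus rests on the labels. Xist and the Y-linked genes fitted the labelled sex in all 23 arrays, and the markers of medium spiny neurons, the main cell type of the striatum, had mean log2 signals of at least 10.2 in every array.

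An antibody is built from heavy and light chains, and each B cell joins its own choice of variable segments, so that single variable segments are used by some B cell clones and not by others. Igkv5-43 is a variable segment of the kappa light chain, member 43 of family 5 by its name. Jchain encodes the joining chain, which plasma cells build into the polymeric antibodies IgM and IgA. Class II molecules present peptides to helper T cells: H2-Aa and H2-Ab1 encode the alpha and beta chains of the I-A molecule, H2-Eb1 the beta chain of I-E, and Cd74 the invariant chain that escorts both through the cell. In mice of the b haplotype, to which C57BL/6 belongs, the I-E alpha chain is not made. In the healthy brain, class II is carried mostly by cells of the meninges, the perivascular spaces and the choroid plexus, and it is turned on in other cells by interferon gamma through the coactivator Ciita. Ciita acts on a shared promoter layout, with an X box bound by the RFX complex and a Y box, a reversed CCAAT, bound by NF-Y.

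RefSeq promoters (GRCm38.p6) were matched for 3 of the 6 genes, Jchain, H2-Aa and H2-Eb1. The 120 bases before each start are shown because class II genes are known for the layout just described. A further reason is that the same 3 arrays held the highest value of their groups for each of these genes. For H2-Eb1 only 1 array lay more than 0.5 log2 units over the median of its sex. Capitals mark ATTGG or its reverse complement CCAAT, and GCAAC, letters at the heart of the X box.
H2-Aa, chr17:34287824-34287943, minus strand: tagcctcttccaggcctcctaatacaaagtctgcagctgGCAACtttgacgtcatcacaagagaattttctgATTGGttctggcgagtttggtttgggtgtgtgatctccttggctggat
H2-Eb1, chr17:34305747-34305866, plus strand: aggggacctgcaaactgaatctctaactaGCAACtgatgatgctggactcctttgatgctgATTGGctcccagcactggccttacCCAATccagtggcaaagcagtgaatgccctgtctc
Jchain, chr5:88527898-88528017, minus strand: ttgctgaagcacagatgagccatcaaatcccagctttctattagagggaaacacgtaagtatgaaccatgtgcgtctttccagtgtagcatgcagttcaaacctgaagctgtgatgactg
In both class II promoters GCAAC came first and ATTGG followed closer to the start. In H2-Aa they lay at -81 to -77 and at -48 to -44, counted in bases from the start. In H2-Eb1 they lay at -91 to -87 and at -59 to -55, and a CCAAT followed at -35 to -31. The Jchain stretch holds none of these letters. ATTGG, searched on both strands, occurred in 37.4% of all 32851 promoters of 300 bases and in 21.3% of the 120-base stretches. GCAAC, which was chosen after these sequences had been read, occurred in 35.2% and 16.1%. A longer X box pattern of 14 positions, present in 0.25% of all promoters, matched none of these 3. A match is a description of the letters and does not show binding.

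Igkv5-43 had the second largest spread between mice of the same group among all 22180 genes. Its pooled within-group SD was 1.23 log2 units, against 0.120 for the median gene. In control females the log2 signal was 8.65, 12.21, 9.89, 8.89 and 11.46 in mice 1 to 5. Mice 2 and 5 stood well above the other three. In knockdown females it ran from 8.81 through a median of 9.10 to 12.35, and the highest value belonged to mouse 4. Control males were closer together, from 8.22 through 8.67 to 9.45. Knockdown males ran from 8.57 through 9.19 to 11.94, with mouse 1 at the top and mouse 4 next at 10.34. The highest mice thus occurred in both sexes and under both labels, and all 4 groups overlapped within their sex.

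Jchain ranked 11 among all genes by its spread, with a within-group SD of 0.807. Control females had log2 signals of 4.05, 5.33, 4.72, 4.09 and 5.18, so that mice 2 and 5 were again the highest. In knockdown females the signal ran from 4.0 through 4.26 to 7.19, and the next below mouse 4 was at 4.41. The distance from mouse 4 to the next was larger than the whole range of the other 5 mice. Control males lay between 3.72 and 4.39 with a median of 3.86, and knockdown males between 3.64 and 5.80 with a median of 3.94. Mouse 1, at 5.80, was the highest knockdown male here too.

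H2-Ab1, the I-A beta chain, ranked 18, with a within-group SD of 0.703. In control females the log2 signal was 5.27, 7.33, 5.43, 5.34 and 5.43. Here mouse 2 stood alone and mouse 5 lay with the others. Knockdown females ran from 5.01 through 5.46 to 7.33, and the next mouse below mouse 4 was at 5.84. Control males lay between 5.09 and 5.68 with a median of 5.33. Knockdown males lay between 4.93 and 6.74 with a median of 5.08, and without mouse 1 their highest value was 5.17.

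H2-Aa, the I-A alpha chain, ranked 51, with a within-group SD of 0.485. Its values in control females were 5.15, 6.5, 5.17, 5.41 and 5.66. Knockdown females ran from 5.23 through 5.35 to 6.5, control males from 4.80 through 5.06 to 5.37, and knockdown males from 4.72 through 5.02 to 6.37. In each group with a high mouse, that mouse was the same as for H2-Ab1. In control males, where no mouse stood far out, the range was 4.80 to 5.37.

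H2-Eb1, the I-E beta chain, varied least, with a within-group SD of 0.211 and rank 1439. Control females had log2 signals of 5.98, 6.61, 5.87, 5.84 and 5.93, with mouse 2 again at the top. Knockdown females ran from 5.78 through 6.06 to 6.23, control males from 5.49 through 5.67 to 5.96, and knockdown males from 5.50 through 5.64 to 6.08. Mouse 4 of the knockdown females was the highest of its group at 6.23, yet close to the next at 6.10. The probe set shared by Cd74 and Mir5107 had log2 signals of 8.78 in control female 2, 9.07 in knockdown female 4 and 8.14 in knockdown male 1. In the other females it lay between 6.59 and 7.58 and in the other males between 6.42 and 7.22, so its 3 highest mice matched those of H2-Ab1 and H2-Aa, and its signal cannot be assigned to either gene.

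**Figure D1:**
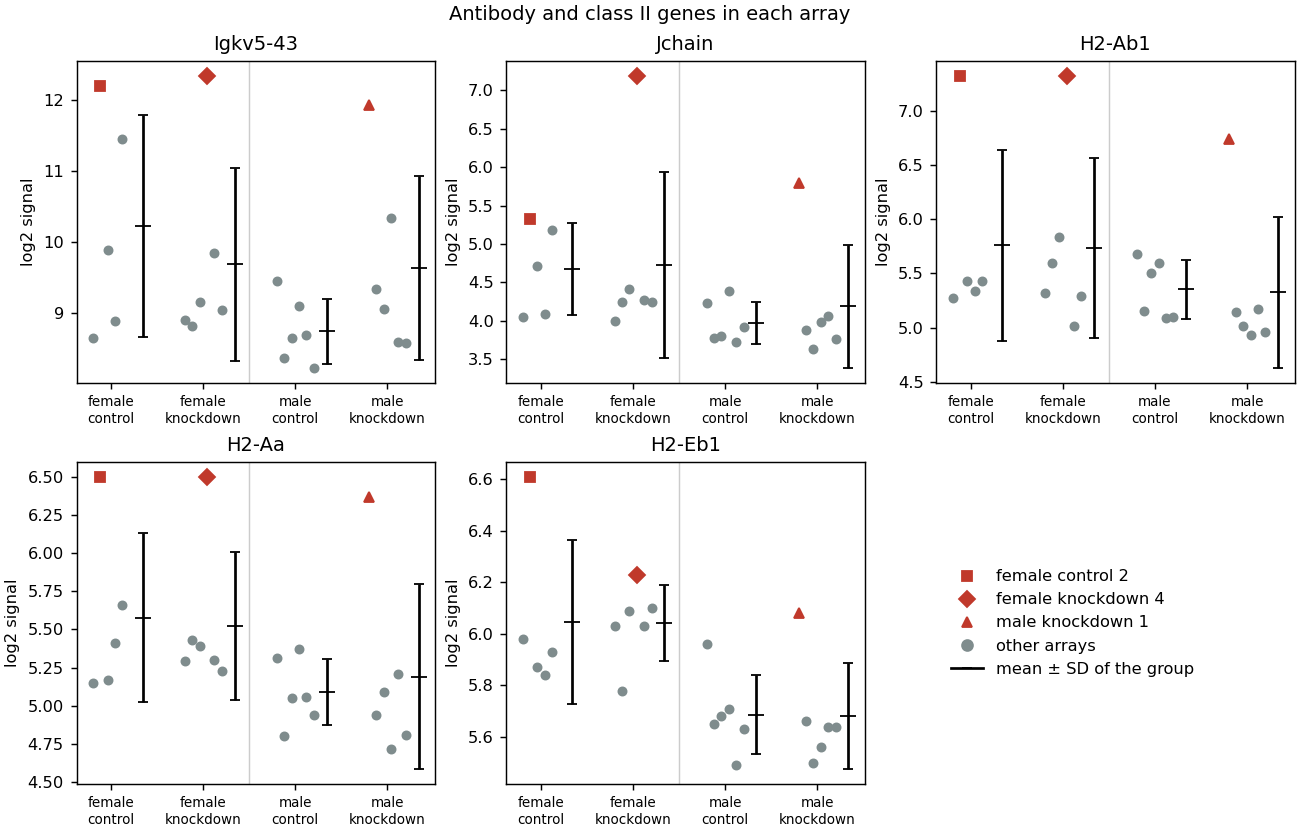
Log2 signal (vertical axis) of the 5 measured genes in each array, by labelled group, with bars for the group mean ± SD (n = 5 control females, n = 6 in each other group). Red symbols mark control female 2, knockdown female 4 and knockdown male 1, which lie at the top of their groups in every panel, for example at 7.33, 7.33 and 6.74 for H2-Ab1.

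The same 3 mice were therefore the highest of their groups for all 5 genes: control female 2, knockdown female 4 and knockdown male 1. Set against the median of their sex, Igkv5-43 was higher by 3.06, 3.20 and 3.08 log2 units in these mice, which is 8.34-, 9.19- and 8.43-fold. Jchain was higher by 1.06, 2.92 and 1.90 units. Its medians, 4.27 in females and 3.90 in males, lay below the lower quartile of all probe sets on every array (4.77 to 4.84 and 4.5 to 4.56), and its signal over background was not measured, so no fold is given for it. H2-Ab1 was higher by 1.90, 1.90 and 1.60 units, or 3.73-, 3.73- and 3.02-fold, and H2-Aa by 1.11, 1.11 and 1.32 units, or 2.16-, 2.16- and 2.49-fold. For Igkv5-43, H2-Ab1 and H2-Aa each, the excess was thus of similar size in the 3 mice. In tissue of mixed cells, more cells of a type and more RNA per cell cannot be told apart.

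Counting as high every mouse more than 0.5 log2 units above the median of its sex, Igkv5-43 was high in 8 of 23 mice, Jchain in 4, H2-Ab1 in 4, H2-Aa in 3 and H2-Eb1 in 1. The genes nearest to this boundary were H2-Ab1 in control male 1, at 0.54 units and inside, and Jchain in control male 4, at 0.49 units and outside. At a boundary of 1 unit, Igkv5-43 was high in 5 mice and Jchain, H2-Ab1 and H2-Aa each in the same 3. Control female 5 parted the antibody genes from class II: Igkv5-43 was 2.31 units and Jchain 0.91 units over the female median there, whereas H2-Ab1 equalled that median and H2-Aa was 0.27 units above it. Knockdown male 4 likewise had Igkv5-43 at 1.48 units over the male median, while its Jchain (3.99), H2-Ab1 (4.93) and H2-Aa (4.72) lay with or below those of the other males.

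Control males, a group without an extreme mouse, showed a smaller form of the same order. Mice 1 and 4 were the highest pair of the 6 for each of the 5 genes: Igkv5-43 was 9.45 and 9.09, Jchain 4.23 and 4.39, H2-Ab1 5.68 and 5.60, H2-Aa 5.31 and 5.37, and H2-Eb1 5.96 and 5.71. Control male 1 also stood apart across the array, with 236 genes more than 0.5 units over the male median, where the other arrays had 18 to 157. The part of that wider shift in the values of this mouse was not tested.

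Likeness between genes was measured as the Pearson correlation of each mouse's deviation from its group mean, over 23 mice. It was 0.886 between Igkv5-43 and Jchain and stayed at 0.757 over the 20 mice other than the 3 high ones. Between H2-Ab1 and H2-Aa it was 0.940, and 0.574 over the 20 mice. For the antibody genes against class II, the mean of H2-Ab1, H2-Aa and H2-Eb1 was used, without Cd74, which had no probe set of its own. Jchain reached 0.854 with that mean (Spearman 0.711) and 0.582 over the 20 mice. Igkv5-43 reached 0.830 (Spearman 0.563), and 0.268 over the 20 mice. Within single groups of 6 mice, its r with the class II mean was 0.919 in control males, which hold none of the 3 high mice, 0.908 in knockdown females and 0.794 in knockdown males. For Jchain these values were 0.840, 0.980 and 0.974. In the 5 control females r was 0.788 for Igkv5-43 and 0.695 for Jchain, the lowest of the 4 groups for each gene. With the 2 mice farthest from the median left out instead, the values were 0.686 for Jchain and 0.634 for Igkv5-43. For both genes these mice were knockdown female 4 and knockdown male 1, so that control female 2, also a high mouse, stayed in. All these points share the arrays and their processing, and the genes were picked from these values.

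**Figure D2:**
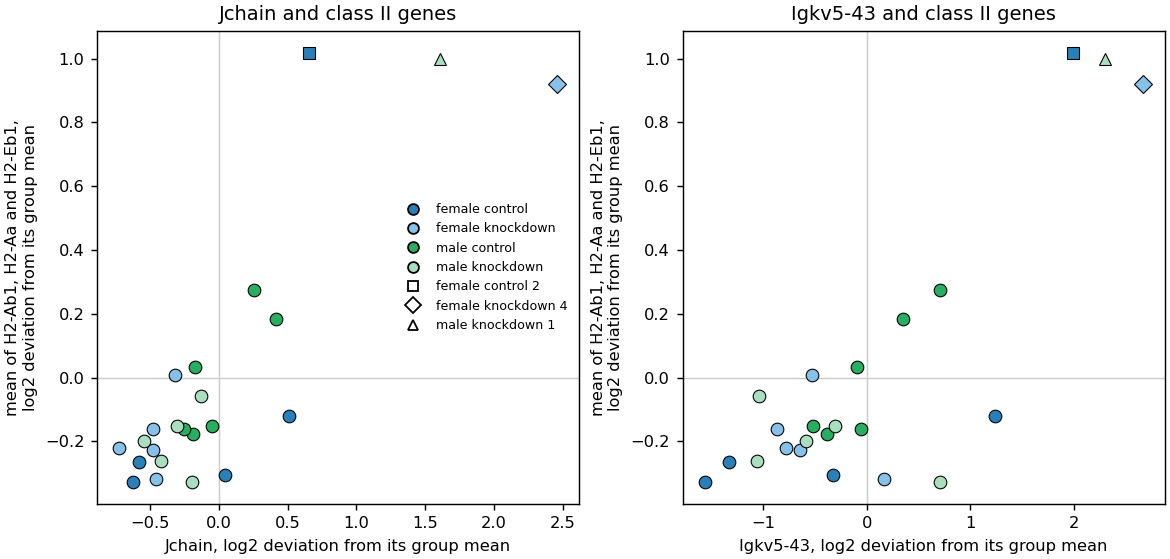
Deviation of each mouse from its group mean, in log2 units, for Jchain (left) or Igkv5-43 (right) on the horizontal axis and for the mean of H2-Ab1, H2-Aa and H2-Eb1 on the vertical axis; points are mice, coloured by group. The 3 high mice lie at the upper right of both panels, and over the other 20 mice the correlation was 0.582 for Jchain and 0.268 for Igkv5-43.

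By the rule fixed for naming similar genes, the 10 genes most like the class II mean over the 23 mice were Fn1 (r = 0.915), Cped1 (0.905), Aebp1 (0.903), Cybb (0.898), Aldh1a2 (0.885), Serping1 (0.883), Ogn (0.883), Olfr1241 (0.877), Vim (0.877) and B2m (0.871). Fn1 encodes fibronectin, Aldh1a2 an enzyme of retinoic acid synthesis, Serping1 the C1 inhibitor of complement, Cybb a subunit of the phagocyte oxidase and B2m the light chain of class I molecules. The 10 most like Jchain were Igkv5-43, H2-Aa (0.865), H2-Ab1 (0.858), Igkv1-133 (0.849), Ighv1-53 (0.847), Iigp1 (0.847), Dcn (0.840), Gm4951 (0.838), B2m (0.833) and Cped1 (0.831). Over the 20 mice the correlation of B2m was 0.360 with class II and 0.172 with Jchain, whereas that of Aebp1 with class II was 0.771 and that of Ighv1-53 with Jchain 0.746. Members of the list thus differed in how far they rested on the 3 mice.

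Among antibody probe sets, those that were high differed from mouse to mouse. The array named 17 variable segments through 19 single-symbol probe sets, including the 3 of Igkv5-43. Of these probe sets, 10 exceeded the median of their sex by more than 1 unit in some mouse and 7 nowhere by more than 0.5. By range within a group, the 5 widest segments were Igkv5-43, Igkv4-59, Igkv4-91, Igkv8-30 and Igkv4-72. Igkv4-59 was 5.34 in knockdown male 1, which is 2.29 units over the male median. Igkv4-91 and Igkv4-72 were 7.93 and 5.90 in control female 5, or 1.98 and 1.55 units over the female median. Igkv8-30 was 7.02 in control male 1, or 1.67 units over the male median. Over all arrays, the medians of Igkv4-59 (3.15) and Igkv4-72 (4.33) lay below the lower quartile of all probe sets, which was at least 4.5 on every array. The signal over background of these probe sets was not measured. Counting probe sets more than 0.5 units high, knockdown male 1 had 7, control female 5 and knockdown female 4 had 5 each, control male 1 had 4 and knockdown male 4 had 3. Control female 2, with 2, had no more than control female 3, knockdown female 5 and control male 2, so one of the 3 high mice did not stand out by this count. Both probe sets high in control female 2 were of Igkv5-43, as were some of those in knockdown female 4 and knockdown male 1. For these mice the counts thus partly restate the choice of that gene.

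Igkv5-43 itself had 3 single-symbol probe sets, and they did not rank the mice alike. On the second, control male 2 was 1.73 and knockdown male 1 0.52 units over the male median, and knockdown female 4 was 1.40 and control female 2 0.52 units over the female median. On the third, all females lay between 3.17 and 3.81, while control male 2 reached 7.79 and knockdown male 1 reached 5.20. Control male 2 had one of the lower values of the main probe set, 8.36. Some kappa variable segments, above all those of one family, closely resemble each other in sequence, so signal credited to one of them may come from another, and the name Igkv5-43 is uncertain in this sense.

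Heavy chain probe sets followed the same mice in part. Ighm, the constant region of IgM, had 7 single-symbol probe sets that disagreed. The one with the highest mean reached 10.28 in knockdown female 4 and 9.64 in control female 5, against a female median of 8.54, and was 8.54 in control female 2. Another (17284605) reached 8.94 in control female 2, 11.28 in knockdown female 4 and 9.73 in knockdown male 1, against medians of 7.16 in females and 6.43 in males. Ighg3, the constant region of IgG3, was, on the higher of its 2 probe sets, 7.64 in control female 2, 6.68 in control female 5, 6.71 in knockdown male 1 and 5.78 in knockdown female 4, against medians of 5.72 and 4.87. On the main probe sets, knockdown female 4 was thus high for Ighm and near the median for Ighg3, and control female 2 the reverse. Other probe sets of these genes parted control female 2 in this way only in part. On Ighm probe sets 17284503, 17284648 and 17284660 it was -0.47, 0 and -0.11 units from the female median. Knockdown female 4 was 0.62, 1.22 and 4.39 units over that median there. On Ighm probe sets 17284349, 17284507 and 17284605 knockdown female 4 stood at 1.81, -0.05 and 4.12 units, and control female 2 at 0.31, 0.68 and 1.78 units. On the other Ighg3 probe set (17284614) control female 2 was 4.56, which equalled the female median. Which heavy chain was high in that mouse therefore depended on the probe set.

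**Figure D3:**
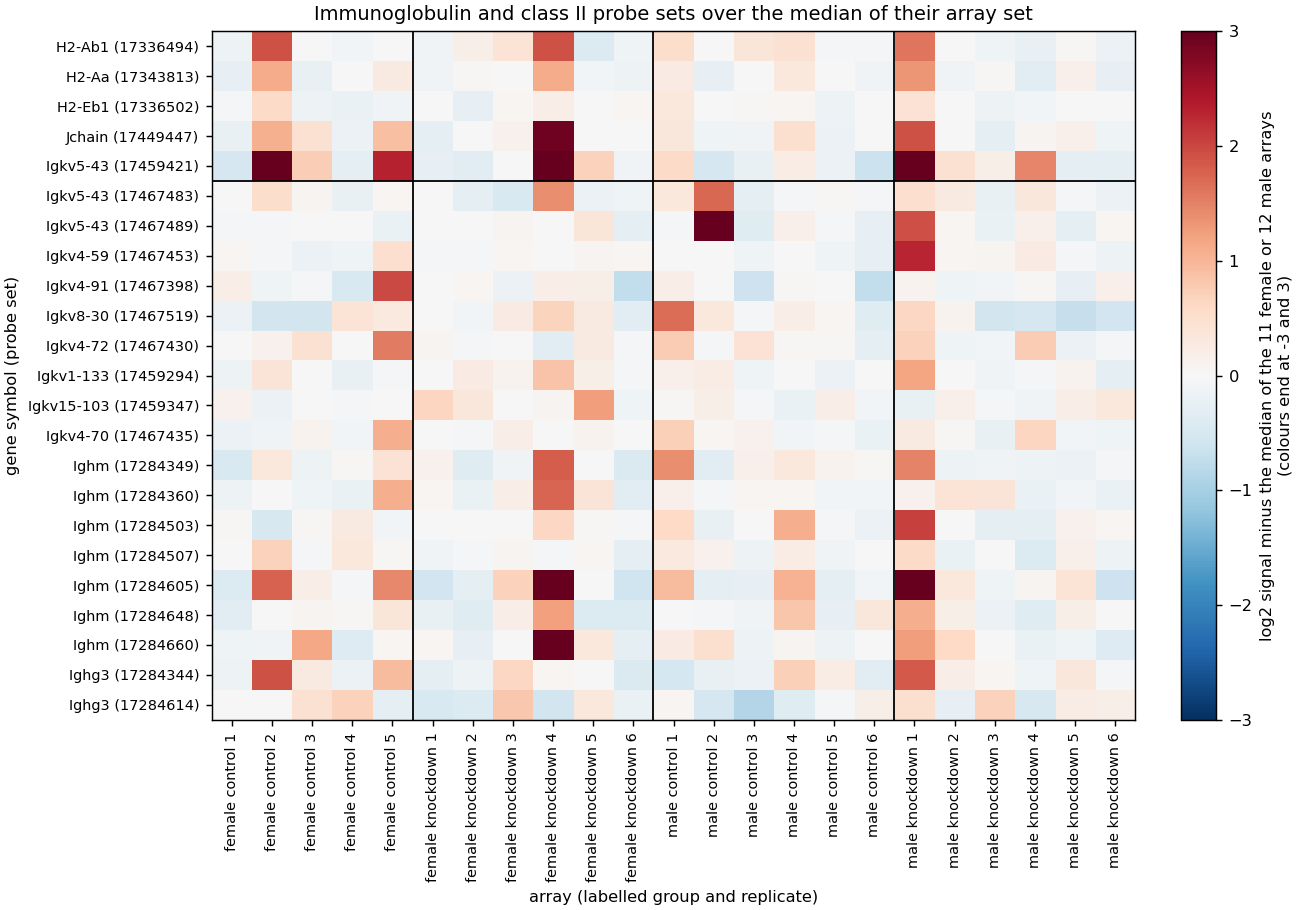
Log2 signal minus the median of the same sex (colour; red higher, blue lower, colours end 3 units either way) for the 5 measured genes (top rows) and for antibody probe sets (lower rows) in each array (columns, split by group). The columns of control female 2, knockdown female 4 and knockdown male 1 are red in the top rows, where Igkv5-43 exceeds 3 units. H2-Eb1 is the faint exception, at 0.58, 0.20 and 0.44 units. Some lower rows peak in other mice, such as control female 5 for Igkv4-91 and control male 2 for Igkv5-43 (17467489).

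Genes that plasma cells and B cells need beside the antibody itself lay nearer to the median in the 3 mice. Of 25 listed antibody and plasma cell genes 15 were measured, and the excess over 0.5 units on the 3 arrays came from Ighm and Ighg3. The list mean was 6.45 in both females (6.26 to 6.48 in the other 9) and 6.16 in the male (5.92 to 6.04 in the other 11). Mzb1, a chaperone of antibody secretion, was 0, -0.27 and 0.12 units from the median in control female 2, knockdown female 4 and knockdown male 1. For Xbp1, a transcription factor of secretory cells, these values were -0.04, 0.07 and -0.08, and for Tnfrsf17, the plasma cell receptor BCMA, -0.14, 0.07 and 0.03. Of 14 measured B cell genes none was more than 0.5 units high in any of the 3 mice, and their mean log2 signal was 5.34 and 5.38 in the 2 females (5.34 to 5.58 in the other 9) and 5.07 in the male (4.92 to 5.09 in the other 11). Cd79a, a signalling chain of the B cell receptor, was 0.19, 0.49 and 0.12 units over the median in them. The highest of the other mice was at 0.295, so that knockdown female 4 alone stood above them.

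The other listed genes of class II presentation had a mean log2 signal of 7.01 and 7.03 in the high females (6.89 to 6.99 in the other 9) and of 6.75 in the male (6.62 to 6.77 in the other 11). The female values thus lay above those of all other females. Among 19 measured genes of class II presentation, 1 exceeded 0.5 units in any of the 3 mice: Ifi30, a lysosomal reductase of antigen processing, at 0.60, 0.32 and 0.23 units over the median. Ciita, the coactivator of class II genes, stood at -0.04, -0.32 and 0.16, and the peptide loading gene H2-DMa at -0.22, 0.06 and -0.01. Ctss, the protease that trims the invariant chain, was 0.42 and 0.34 units high in the females and -0.05 in the male. Ctsh was 0.26, 0.32 and 0.29 units high, where no other mouse exceeded 0.17. How far these probe sets lay above background was not measured here.

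Marker lists of other cells and states moved with the 3 mice to different degrees. Meningeal fibroblast genes had a mean log2 signal of 7.26 in control female 2 and 7.14 in knockdown female 4, against 6.59 to 7.01 in the other females, and of 7.14 in knockdown male 1, against 6.42 to 7.01 in the other males. Of the 10 genes in that list, all measured, 3, 2 and 2 were more than 0.5 units high in these mice: Dcn, the proteoglycan decorin, by 0.63, 0.86 and 1.23 units, Aldh1a2 by 1.34, 1.0 and 0.61, and Ptgds, prostaglandin D synthase, by 1.16, 0.37 and 0.21. The collagens Col1a1 (0.17, 0.14 and 0.22) and Col3a1 (-0.02, 0.12 and 0.30) moved less. The part of meningeal tissue in the antibody and class II values was not tested.

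Class I presentation genes (13 of 14 measured) had their highest means in the same mice, at 6.99 and 7.22 in the females (6.73 to 6.93 in the others) and 6.82 in the male (6.56 to 6.75). H2-K1, a class I heavy chain, was 0.53, 1.01 and 0.38 units high and B2m 0.44, 0.71 and 0.34. Interferon response genes (20 of 24 measured) were set apart in knockdown female 4, with a mean of 6.42 against 5.60 to 5.82 in the other females, and 12 of the 20 genes exceeded 0.5 units there, among them Oasl2 (1.70), Iigp1 (1.63), Igtp (1.45) and Cxcl10 (1.27). In control female 2 the mean was 5.86 with 4 genes over 0.5, and in knockdown male 1 it was 5.53 with 2 genes over 0.5, below control male 1 at 5.73. Interferon response genes were thus widely high beside the class II genes in 1 of the 3 mice, and their part in the class II values was not tested.

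Of the remaining lists, reactive gliosis genes had a mean of 6.59 and 6.55 in the high females (6.33 to 6.49 in the others) and of 6.30 in the male (6.06 to 6.21), the highest of each sex. Endothelial means were 7.56 and 7.64 in the females (7.31 to 7.52 in the others) and 7.29 in the male (7.19 to 7.38). T cell means were 5.48 and 5.52 in the females (5.41 to 5.52) and 5.34 in the male (5.13 to 5.27), where the male alone lay above its sex. Border macrophage genes had means of 5.89, 5.84 and 5.68 in the 3 mice (5.70 to 5.87 in other females and 5.44 to 5.68 in other males). For dendritic cell and monocyte genes they were 5.69, 5.72 and 5.52 (5.57 to 5.72 and 5.30 to 5.49). The part of these cells and states in the antibody and class II values was not tested. Microglial genes (17 of 18 measured) averaged 7.76 and 7.78 in the 2 females (7.61 to 7.70 in the others) and 7.53 in the male (7.35 to 7.55), with none of them over 0.5 units. No gene of the border macrophage (10 of 10 measured), neutrophil (8 of 8), endothelial (9 of 9), choroid plexus and ependymal (9 of 10), medium spiny neuron (9 of 12) or cortical neuron list (8 of 9), nor the single red blood cell gene measured of 7, exceeded 0.5 units in any of the 3 mice. Single genes did in 3 other lists: Lyz2, the lysozyme of macrophages, at 0.51, 0.30 and 1.0 units, with Ly6c2 at 0.57 in the male, among 15 dendritic cell and monocyte genes of 16; Ccl5 at 0.60 in knockdown female 4 among 17 T cell genes of 18; and Gfap (0.73, 0.79 and 0.44), Vim and Serpina3n among 12 reactive gliosis genes of 13. The genes named in this and the 2 preceding paragraphs were picked out after their values had been seen.

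**Figure D4:**
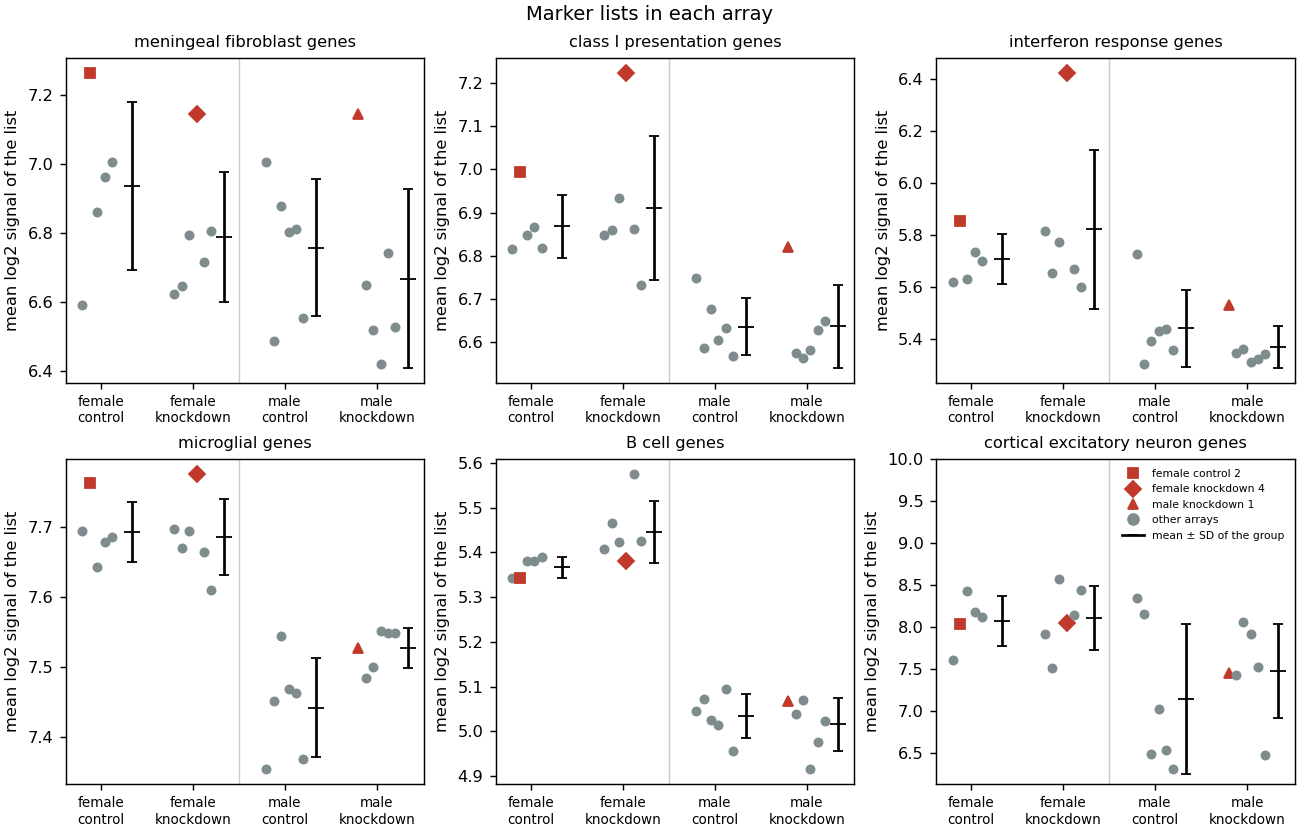
Mean log2 signal (vertical axis) of 6 marker lists in each array, by labelled group, with bars for the group mean ± SD. Red symbols mark the 3 high mice: meningeal fibroblast and class I means are the highest of each group there (7.26, 7.14 and 7.14 for meningeal genes), the interferon mean reaches 6.42 in knockdown female 4, and the B cell and cortical neuron means lie within the range of the other mice.

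Over the whole array, 14 of 22180 genes exceeded the median of their sex by more than 0.5 units in all 3 mice, and 5 of these did so in no other mouse. Besides Igkv5-43, H2-Ab1, H2-Aa and Jchain they were Ogn, Serping1, Dcn, Fmod, Aldh1a2, Ddr2, Iigp1, Fn1, Cped1 and Slc6a20a. Ogn, Dcn and Fmod encode small proteoglycans of connective tissue, and Ddr2 a collagen receptor. Ogn was 1.51, 1.31 and 1.55 units high and Serping1 1.10, 1.15 and 0.83. The 3 arrays differed in how far they deviated in general. Knockdown female 4 had the most genes over 0.5 units of all females, 135. Control female 2 had 67, and the other females had 18 to 116. Knockdown male 1 had 99, against 38 to 236 in the other males. Above 1 unit, the 2 high females led their sex with 12 genes in control female 2 and 17 in knockdown female 4. Knockdown male 1 had 16 and did not lead the males, since control male 1 had 37 and control male 2 had 18. These counts were made after the 3 mice had been recognised and carry no test.

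Knockdown was then set against control in each sex, which asks whether the hairpin against Nr1d1 went with a change of these genes. No change was detected. By limma with Benjamini-Hochberg adjustment over all 41345 probe sets, 0 probe sets (0% of those tested) passed an adjusted p of 0.05 in females or in males, and none of the 5 genes did. At an unadjusted p under 0.05, 2423 probe sets (5.86%) were called in females and 1948 (4.71%) in males, again with 0 of the 5 genes. Since the spread within groups is that of a few very high mice, the intervals are wide.

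Igkv5-43 differed most. In females its log2 signal was 10.22 ± 1.57 (SD, n = 5) in control and 9.68 ± 1.36 (SD, n = 6) in knockdown mice, a log2 difference of -0.54 (SE 0.69, 95% interval -1.96 to 0.89, limma adjusted p = 0.949). In males it was 8.74 ± 0.46 and 9.64 ± 1.30 (SD, n = 6 each), a difference of 0.90 (SE 0.66, interval -0.46 to 2.25, limma adjusted p = 0.996). The male and female differences were themselves 1.43 apart (SE 0.95, limma adjusted p = 0.910), so an opposite response of the sexes was not shown. That test of the difference between the sexes called 0 probe sets (0%), and 2358 (5.7%) at an unadjusted p under 0.05, none of them of the 5 genes. The female difference was -0.039 without control female 2 and -1.07 without knockdown female 4. Without all 3 high mice the differences were -0.57 (SE 0.45) in females and 0.43 (SE 0.41) in males, and on the other probe sets of this gene the male difference was -0.17 and -0.38.

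For Jchain the female means were 4.67 ± 0.60 in control and 4.73 ± 1.21 in knockdown mice, and the log2 difference was 0.05 (SE 0.45, interval -0.88 to 0.99, limma adjusted p = 0.995). The male means were 3.97 ± 0.27 and 4.19 ± 0.80, with a difference of 0.22 (SE 0.43, interval -0.68 to 1.11). Leaving out the 3 high mice turned both, to -0.27 (SE 0.19) in females and -0.11 (SE 0.17) in males. Knockdown female 4 alone did so in females, where the difference without it was -0.44. No direction can therefore be given for Jchain.

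H2-Ab1 was 5.76 ± 0.88 in control and 5.73 ± 0.83 in knockdown females, a log2 difference of -0.03 (SE 0.39, interval -0.85 to 0.79, limma adjusted p = 0.997). Each of these groups held 1 high mouse, and the difference was 0.36 without control female 2 and -0.35 without knockdown female 4. In males it was 5.35 ± 0.27 and 5.33 ± 0.70, again a difference of -0.03 (SE 0.38, interval -0.81 to 0.75). Without knockdown male 1, the high mouse of that group, the male difference was -0.31, and it was the same with all 3 high mice left out (SE 0.13, limma adjusted p = 0.9995). The other knockdown males lay between 4.93 and 5.17, within and below the 5.09 to 5.68 of the control males, so the groups still overlapped.

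For H2-Aa the log2 difference was -0.05 in females (5.58 ± 0.56 in control and 5.52 ± 0.48 in knockdown mice, SE 0.27, interval -0.62 to 0.51) and 0.10 in males (5.09 ± 0.22 and 5.19 ± 0.61, SE 0.26, interval -0.44 to 0.64). For H2-Eb1, the gene with the least spread, it was -0.0027 in females (6.05 ± 0.32 and 6.04 ± 0.15, SE 0.12, interval -0.26 to 0.25) and -0.0067 in males (5.69 ± 0.15 and 5.68 ± 0.21, SE 0.12, interval -0.25 to 0.23). These intervals bound a change of H2-Eb1 more tightly than one of Igkv5-43. Averaged over both sexes, the differences were 0.18 for Igkv5-43, 0.14 for Jchain, -0.03 for H2-Ab1, 0.02 for H2-Aa and -0.0047 for H2-Eb1, and the average contrast again called 0 probe sets (0%; 1949 or 4.71% at an unadjusted p under 0.05).

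**Figure D5:**
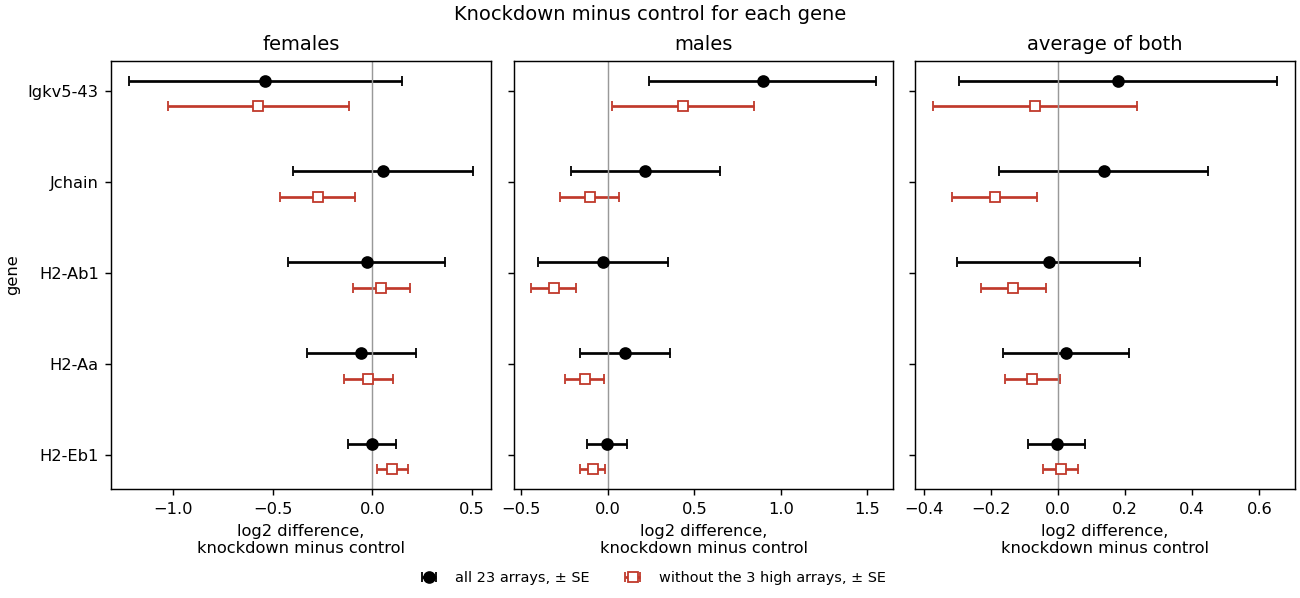
Log2 difference of knockdown minus control (horizontal axis) for the 5 measured genes in females, in males and averaged over both; black circles are all 23 arrays, red open squares leave out the 3 high mice, and bars are ± SE from the limma fit. Igkv5-43 has the widest bars (SE 0.69 in females), and Jchain lies right of 0 with all arrays and left of 0 without the 3 mice.

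No gene of any other list passed the adjusted threshold in either sex. Of the 15 antibody and plasma cell genes 9 were higher and 6 lower with the knockdown label in females as in males, with list medians of 0.02 in both, where the median of all genes was 0.00033 in females and 0.0033 in males. The 19 class II presentation genes had 9 higher and 10 lower in females (median -0.003) and 10 higher and 9 lower in males (median 0.01). Of the 14 B cell genes 12 were higher in females (median 0.08) and 5 in males (median -0.03). Of the 20 interferon response genes 18 were higher in females (median 0.14) and 7 in males (median -0.05). In knockdown female 4, 12 of the 20 lay more than 0.5 units over the female median. Class I genes had medians of 0.03 in both sexes, and meningeal fibroblast genes medians of -0.15 and -0.11, with 7 and 8 of 10 genes lower.

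Over the remaining lists, medians ran from -0.03 (endothelial and reactive gliosis genes) to 0.07 (T cell genes) in females and from -0.02 (endothelial genes) to 0.23 (cortical neuron genes) in males. Some of these lists leaned as far to one side. In females 8 of 8 neutrophil and 15 of 17 T cell genes were higher, against 4 and 9 in males. In males 16 of 17 microglial and 9 of 9 medium spiny neuron genes were higher, against 7 and 3 in females. The share of all genes that were higher was not counted. The smallest unadjusted p values in the average contrast of the antibody list belonged to Mzb1 (log2 difference 0.12, SE 0.05) and Tnfrsf17 (0.05, SE 0.05). In the class II list they belonged to Ctsl (-0.12, SE 0.05) and Ctsh (0.12, SE 0.05), both lysosomal proteases, and in the B cell list to Bank1 (0.14, SE 0.05) and Tnfrsf13c (0.09, SE 0.05). In the other lists the genes of smallest p were Psmb8 (0.12) and Psmb10 (-0.07) for class I, Cd209a (0.09) and Batf3 (0.12) for dendritic cells and monocytes, and Ms4a7 (0.09) and Mrc1 (-0.08) for border macrophages. They were Laptm5 and C1qb (0.10 each) for microglia, Gzma (0.11) and Cd8b1 (0.13) for T cells, Irf1 (0.06) and Irf9 (0.09) for the interferon response, and Ngp and Ltf (0.06 each) for neutrophils. Slc4a1 (0.05) was the red blood cell gene measured, Slco1a4 (-0.05) and Flt1 (0.02) led the endothelial list, and Slc22a6 (-0.21) and Ptgds (-0.30) the meningeal one. The last were Foxj1 (0.11) and Aqp1 (0.09) for choroid plexus and ependyma, Cst7 (0.06) and Clec7a (-0.08) for gliosis, Gpr6 (0.11) and Bcl11b (0.07) for medium spiny neurons, and Rorb (0.08) and Cux2 (-0.05) for cortical neurons. Each of these genes had a limma adjusted p of 0.980, except Flt1 at 0.981. The smallest limma unadjusted p among them was 0.0047, for Gzma. None of these differences was thus called once the number of probe sets tested was taken into account.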

How the data were processed

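Expression was measured on whole-transcript arrays of micropunched nucleus accumbens, 1 array per mouse. The deposited values are log2 signals per probe set, made by the authors with Transcriptome Analysis Console per the submitters' processing notes. The sources used here give neither its version nor the normalization method or the genome build. Per the labels, replicates are biological. No column was left unmapped (0), no arrays were identical (0 pairs), and probe sets were used as deposited, with no filter.

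Probe sets were named through the platform's annotation table, which gave 1 symbol for 23521 of 41345 probe sets, several for 1814 and none for 16010. A gene was represented by its single-symbol probe set with the highest mean. All 23 arrays entered 1 model with a mean per group (limma 3.58.1, R 4.3.3; 19 residual and 3.24 prior degrees of freedom), and two-sided p values were adjusted by Benjamini-Hochberg over all probe sets. The script was tested on simulated data. The number of arrays limits the precision.

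A mouse was called high for a gene at more than 0.5 log2 units over the median of its sex. Named were the 6 genes sought, Nr1d1 and sex genes, measured genes of the antibody and class II lists, the 2 genes of smallest p of each other list, the 10 genes most like Jchain or the class II mean, and the 5 variable segments of widest range. Further genes of these lists, such as Cd79a, Dcn and Oasl2, were named after their values had been seen. The genes and lists were chosen with earlier results of these data known. Alternatives covered normalization, array weights, variance models, filters, probe sets, thresholds, the replicate block and leaving out arrays. The 2-symbol probe set of Cd74 was used for description only.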

Additional observations from a re-analysis of the deposited data

Results flagged for a closer look

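In groups of 5 or 6 mice, a highest or lowest value was singled out when its gap to the nearest other mouse was a large share of the group's range by Dixon's criterion, above 0.710 for 5 mice and 0.625 for 6. Of 92 groups of values checked 19 met it, and 10 of these were among the 20 groups of the antibody and class II genes. Chance gives about 1 in 20 for independent values not chosen for their extremes. The groups checked share the same arrays and include chosen genes, so their count cannot be judged by that rate. The 5 antibody and class II genes were chosen with their high values known, so for them the criterion restates that choice and is a description. Igkv5-43 met it in knockdown female 4 (gap over range 0.706). Jchain met it in knockdown female 4 (0.871) and knockdown male 1 (0.806). H2-Ab1 met it in control female 2 (0.922), knockdown female 4 (0.642) and knockdown male 1 (0.867). For H2-Aa the mice were knockdown female 4 (0.843) and knockdown male 1 (0.703), and for H2-Eb1 control female 2 (0.818) and knockdown male 1 (0.724). No control male met it for any of these 5 genes.

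Among list means, interferon response genes were singled out in knockdown female 4 (0.738), control male 1 (0.681) and knockdown male 1 (0.776), and meningeal fibroblast genes in knockdown female 4 (0.646). In knockdown male 1 this also held for antibody and plasma cell genes (0.710), class I genes (0.663) and reactive gliosis genes (0.651). The remaining cases were low values: Nr1d1 in control female 4 (0.75) and medium spiny neuron genes in knockdown male 6 (0.663).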

How the results depend on the processing

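No antibody or class II gene passed the adjusted threshold under any alternative, where the lowest adjusted p was 0.738. Signs of these uncalled log2 differences did turn, and the cause was not tested. With the 3 high mice left out together, an alternative chosen after seeing the data, the female values were -0.27 for Jchain, 0.045 for H2-Ab1 and 0.10 for H2-Eb1, the male values -0.11 for Jchain and -0.13 for H2-Aa, the averages -0.069 for Igkv5-43, -0.19 for Jchain, -0.077 for H2-Aa and 0.0072 for H2-Eb1, and the male minus female value of H2-Aa -0.11. The other Igkv5-43 probe sets gave 0.095 in females (17467489), -0.17 and -0.38 in males (17467483 and 17467489), -0.097 and -0.14 on average and -0.14 and -0.47 between the sexes. Array weights gave -0.17 for Jchain in females, -0.012 for H2-Aa on average, and 1 probe set called between the sexes. Quantile normalization, over all arrays or within a sex, gave H2-Eb1 0.00025 and 0.00021 in males and 0.026 and 0.025 between the sexes.

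The labels do not say that replicate numbers pair the mice, and little array-wide likeness of same-numbered mice was seen. Of 11 same-numbered pairs 2 correlated above 0.1 (range -0.096 to 0.135), and 3 of 22 arrays correlated best with their own number. Such correlations cannot show whether the mice were paired in the experiment. With the replicate block, which leaves out 1 array, 0 probe sets were called in each contrast, and H2-Ab1 was 0.06 in females and 0.016 on average, H2-Aa 0.0040 in females and H2-Eb1 0.0073 between the sexes.

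Leaving out 1 array at a time gave 0 to 1 probe sets called in females, in males and between the sexes (1 without knockdown female 1 in females, and 1 without control male 1 or control male 5 in males and between the sexes) and 0 on average. In females the log2 differences ran from -1.07 to -0.039 for Igkv5-43, -0.44 to 0.22 for Jchain, -0.35 to 0.36 for H2-Ab1, -0.25 to 0.18 for H2-Aa and -0.054 to 0.14 for H2-Eb1. In males they ran from 0.43 to 1.11, -0.11 to 0.33, -0.31 to 0.051, -0.13 to 0.20 and -0.087 to 0.048, in the same order of genes. The averages ran from -0.088 to 0.43, -0.11 to 0.22, -0.19 to 0.17, -0.095 to 0.14 and -0.045 to 0.066, and the male minus female values from 0.93 to 1.97, -0.16 to 0.65, -0.39 to 0.32, -0.080 to 0.35 and -0.15 to 0.051. The likeness to the class II mean ran from 0.765 to 0.881 for Igkv5-43 and from 0.80 to 0.922 for Jchain.

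Rank correlation lowered the likeness of Igkv5-43 to class II to 0.563, and without the 3 high mice it was 0.268, and 0.582 for Jchain. A boundary of 1 unit left 5 high mice for Igkv5-43 and 0 for H2-Eb1, and one of 0.25 units gave 7 for Jchain, 7 for H2-Ab1, 6 for H2-Aa and 3 for H2-Eb1. The exact permutation test gave p values from 0.143 (Igkv5-43 in males) to 0.991 (H2-Eb1 in females). Signal over background was not used here, which limits what can be said of low probe sets.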

Other observations

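Some antibody probe sets that name more than 1 gene, or none, were also high in these mice. The probe set listing Igkv4-53, Igkj1 and Igkv6-23 ran from 5.70 to 12.84 over the 23 arrays and was 12.03, 12.79, 12.84 and 12.12 in control female 2, knockdown female 4, knockdown male 1 and control female 5. The one listing Ighg3, Ighv1-47 and Ighm was 10.80, 10.48 and 10.92 in knockdown female 4, knockdown male 1 and control female 5 but 7.77 in control female 2. The one listing Ighv1-54, Igkv1-135 and Ighm was highest in control female 2, at 10.82. There knockdown female 4 (8.41) and knockdown male 1 (8.65) also lay over the medians of their sex, 7.43 and 7.16.

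Among unnamed probe sets, the one most like Jchain over the 23 mice (17284609, r = 0.949) had log2 signals of 7.19, 9.22 and 8.44 in control female 2, knockdown female 4 and knockdown male 1, and 5.74 to 6.61 in the other 20 mice. These probe sets were picked after their values had been seen, and no test was made of them.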
